A study of Mus musculus with 7 samples.

Results

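The genes described here are 9 secreted growth factors and cytokines with roles in tissue repair, namely Vegfa, Tgfb1, Igf1, Hgf, Hbegf, Areg, Osm, Grn and Il10. They were taken by gene symbol from a table of 16047 genes, which holds 8 of the 9. Areg, an epidermal growth factor receptor ligand, has no row under its symbol or its older names, so no value is given for it. The level of 7 of the 8 averaged at least 1 RPKM, the read count scaled to transcript length and library depth, over the libraries and entered the test, and Il10 did not.

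Neutrophils were sorted from mouse livers at 24 h after acetaminophen-induced liver injury (AILI), and the question addressed was how the absence of infiltrating Ly6Chi monocytes changes their gene expression. All mice were C57BL/6 males of 8 to 12 weeks and received 300 mg/kg of acetaminophen. The 3 MC-21 mice (replicates 2 to 4) were injected with 400 µL of medium carrying 29 µg/mL of MC-21, an antibody to the chemokine receptor CCR2 that ablates Ly6Chi monocytes, from 12 h before acetaminophen and every 24 h, and the 4 control mice (replicates 5 to 8) received PBS. Per liver, 50000 CD11b+ Ly6Clo CX3CR1-GFP- Ly6G+ cells gave 1 library. The gate uses a CX3CR1-GFP reporter, but the labels give no genotype beyond the strain, there were no uninjured livers, and the controls received PBS rather than a control antibody.

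These proteins act on other cells to close a wound. Oncostatin M, encoded by Osm, signals through gp130 and STAT3, and HB-EGF, amphiregulin and HGF drive hepatocyte survival and proliferation through receptor tyrosine kinases. VEGF-A rebuilds the vasculature, TGF-β1 is secreted in a latent form and governs matrix deposition and immune suppression, and IL-10 and progranulin, encoded by Grn, restrain inflammation. Only RNA was measured, so none of the values below describes the protein stored or released.

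As estimated from the steps between low RPKM values, a level of 1 RPKM on a 1 kb transcript came from approximately 1.59 reads in the shallowest library, MC-21 replicate 3, and 3.96 in the deepest, PBS replicate 8. Pearson's r of log2(RPKM + 1) was 0.953 to 0.974 between PBS libraries, 0.955 to 0.962 between MC-21 libraries and 0.943 to 0.973 across groups. MC-21 replicate 4 had the lowest library quality weight in limma (0.703, against 0.975 to 1.26 in the others). Its median log2(RPKM + 1) was also the lowest (2.89, against 3.05 to 3.23). Summed RPKM of 11 neutrophil markers was 17700 to 30240 in PBS and 27086 to 40487 in MC-21, most of it from S100a8, S100a9 and Retnlg, and the other 8 summed to 546 to 782 and 626 to 747. By limma at an unadjusted p under 0.05, those 3 abundant markers were higher and Camp was lower (log2 difference -1.89), and 0 passed after adjustment. Markers of other cell types are given beside the results they touch. In bulk samples, fewer cells of a type and less RNA per cell cannot be told apart.

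Short-lived cytokine mRNAs often carry AU-rich elements in the 3′ untranslated region (UTR), which recruit decay factors such as Zfp36, a gene present here at 1224 to 2245 RPKM. In the longest annotated 3′ UTR of each gene, the pentamer ATTTA and the heptamer TATTTAT, which contains it, were counted on the transcript strand, overlapping matches included. A stretch around a heptamer is shown for Osm, the most abundant member, and for Vegfa, Il10 and Areg, with ATTTA in capitals. Hbegf also held the heptamer and is not shown. The sequences are 5′ to 3′ on the transcript strand, from GENCODE transcripts on the mm9 build.
Osm, chr11:4140589-4140615, plus strand: caagacactttATTTAtccgaatgtca
Vegfa, chr17:46154116-46154142, minus strand: tgttatcATTTATTTAttggtgctact
Il10, chr1:132920963-132920989, plus strand: ctctccgaaatATTTAttacctctgat
Areg, chr5:91577409-91577435, plus strand: ATTTAagtgttATTTAttttatagctc

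Pentamers per length exceeded those of the median gene in 7 of the 9 members. Areg had 15.8 per kb, Il10 8.50, Osm 5.90, Vegfa 4.83, Hgf 4.48, Igf1 2.84 and Hbegf 2.75, against a median of 1.07 per kb over 8463 tested genes with a 3′ UTR. Tgfb1 and Grn had 0 in UTRs of 436 and 337 bases. The heptamer was found 4 times in Il10, 3 times in Osm, 3 times in Vegfa, 2 times in Hbegf and 1 time in Areg, and 25.5% of the tested genes held at least 1. Among tested genes with a UTR within 20% of the same length, the share was 17.1% for Il10 and 21.1% for Osm. It was 35.2% for Vegfa, 30.5% for Hbegf and 6.31% for Areg. The pentamer was held by 65.2% of all tested genes with a 3′ UTR. These are matches of letters, and decay was not measured.

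The 8 members spanned more than 3 orders of magnitude in level, from Osm, among the most abundant transcripts of these cells, to Il10, which was barely detected. In PBS neutrophils the mean RPKM was 442 ± 62.9 for Osm, 131 ± 24.5 for Grn, 40.6 ± 4.24 for Tgfb1, 26.2 ± 9.53 for Hbegf, 11.4 ± 2.28 for Vegfa, 2.61 ± 0.891 for Igf1 and 1.84 ± 0.446 for Hgf (SD, n = 4). Neighbours in this order did not overlap between libraries except Tgfb1 with Hbegf and Igf1 with Hgf. In MC-21 neutrophils the order was Osm, Grn, Hbegf, Tgfb1, Vegfa, Igf1, Hgf and Il10, and the ranges of Grn and Hbegf, Hbegf and Tgfb1, Igf1 and Hgf, and Hgf and Il10 overlapped. RPKM divides by transcript length although the libraries read transcript 3′ ends, which lowers the apparent level of long transcripts such as Igf1 relative to short ones.

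**Figure D1:**
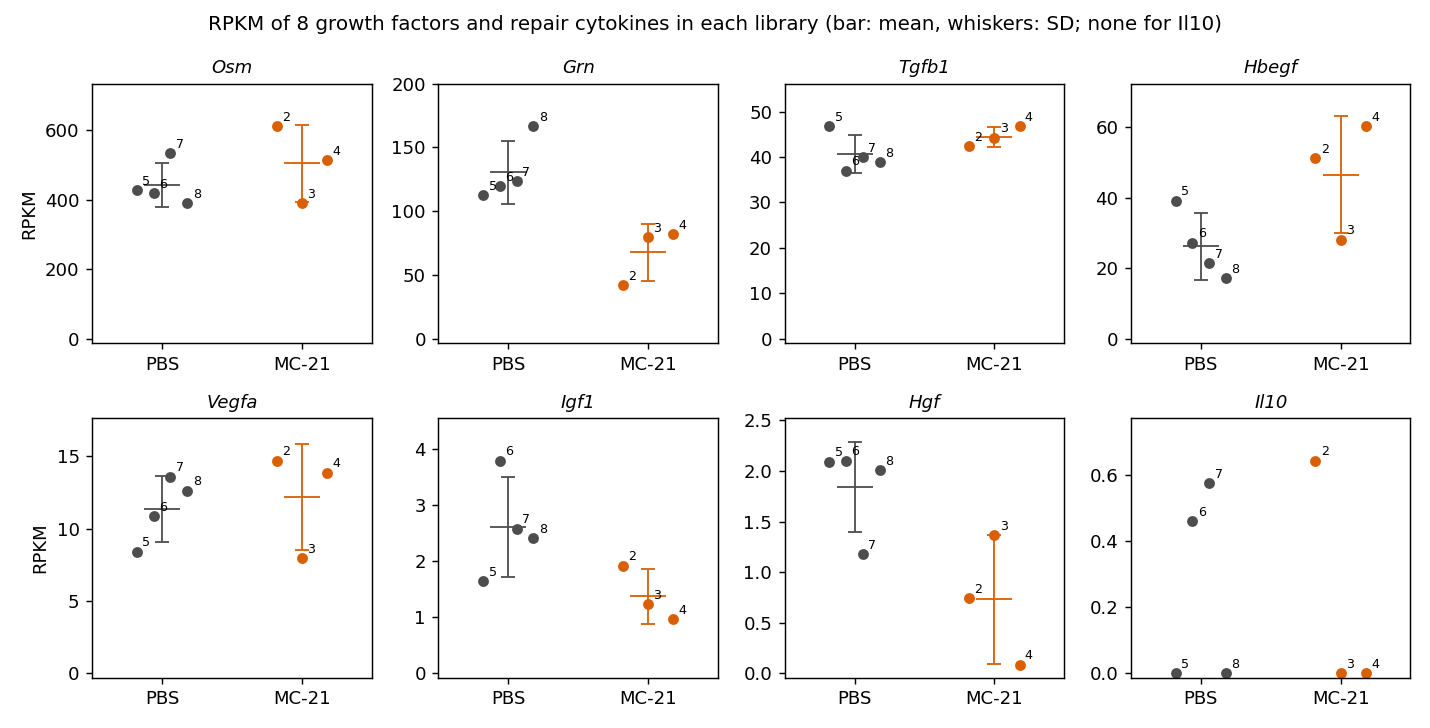
RPKM of the 8 members in each library, on a linear axis per gene, with PBS in grey and MC-21 in orange, numbers marking the replicate, and bars and whiskers giving the mean and SD except for Il10. Grn is the only member whose MC-21 values, up to 81.8, all lie below the PBS values, which start at 113.

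Across the members, removal of monocytes was accompanied by lower mean levels of Grn, Hgf and Igf1, a higher mean level of Hbegf and smaller differences in Osm, Tgfb1 and Vegfa, but none passed the test. By limma on log2(RPKM + 1), 0 of the 7 members tested had an adjusted p under 0.05, against 60 of 9594 genes (0.625%). At an unadjusted p under 0.05 there were 4 of 7, against 14.7% of all genes, of which 3 were lower in MC-21 (11.2% of all genes) and 1 was higher (3.59%). Adding the requirement of a 2-fold difference left 0 of 7, against 2.7% of all genes. Without overlap between the groups there was 1 of 7, against 13.3%. The median log2 difference over all genes tested was -0.15, with 69.4% of genes below 0, and over the 7 members it was 0.068. The number of unadjusted calls depended on single libraries, with 2 when PBS replicate 6 or 7 was left out and 1, Grn, when PBS replicate 8 or MC-21 replicate 4 was left out.

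**Figure D2:**
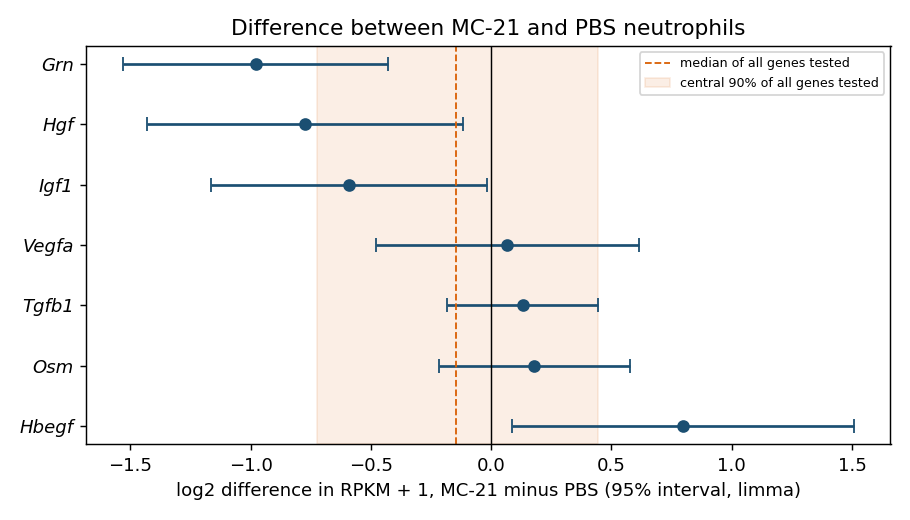
Log2 difference in RPKM + 1, MC-21 minus PBS, of the 7 members tested, with 95% intervals from limma, beside the median and the central 90% (-0.72 to 0.44) of all genes tested. Grn (-0.98), Hgf (-0.77) and Hbegf (0.80) lie outside the central 90%, and the intervals of Vegfa, Tgfb1 and Osm include 0.

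Progranulin is a secreted and lysosomal glycoprotein that is cleaved into granulins. Its transcript, Grn (chr11:102291629-102298123, plus strand), stood at 113, 119, 123 and 167 RPKM in the PBS libraries and at 42.0, 79.4 and 81.8 RPKM in the MC-21 libraries. Each MC-21 value lay below each PBS value, and MC-21 replicate 2 was the lowest of the 7. On the log2 scale the difference was -0.98 (SE 0.25, limma, unadjusted p = 0.0029, adjusted p = 0.128), a 1.97-fold lower level with an interval from 0.346 to 0.744 of the PBS level. The two-sided exact permutation test gave p = 0.0286, the smallest that 35 splits of 7 libraries allow. Without MC-21 replicate 2 the log2 difference was -0.67 and without MC-21 replicate 4 it was -1.14, and over 14 alternatives the unadjusted p was 0.0021 to 0.0101 and the adjusted p 0.110 to 0.340.

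Genes that handle progranulin did not pass the test. Slpi, the leukocyte protease inhibitor that protects progranulin from cleavage, was at 1302 to 1634 RPKM in PBS and 1267 to 1298 in MC-21, a log2 difference of -0.18 with groups that did not overlap (limma adjusted p = 0.504). Psap, prosaposin, which carries progranulin to the lysosome, was at 490 to 1083 RPKM in PBS and 459 to 660 in MC-21 (log2 difference -0.35, adjusted p = 0.559). Sort1, the sorting receptor that takes up progranulin, was at 3.08 to 5.05 RPKM in all 7 libraries.

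Macrophages also express Grn strongly, and levels of several macrophage genes were lower in MC-21. Cd68, a lysosomal glycoprotein of macrophages, was at 118 to 176 RPKM in PBS and 87.1 to 92.2 in MC-21 (log2 difference -0.73, limma adjusted p = 0.0786). Of 13 monocyte and macrophage markers tested, 2 were lower at an adjusted p under 0.05, Ccr2 (1.91 to 3.26 against 0 to 0.390 RPKM, adjusted p = 0.0263) and F13a1 (2.06 to 5.27 against 0.183 to 0.428, adjusted p = 0.0378), and at an unadjusted p under 0.05 there were 6 lower and 1, Cd14, higher. The 14 such markers in the table summed to 702 to 1214 RPKM in PBS and 1324 to 1679 in MC-21. Without Cd14, which neutrophils also express, the 13 others summed to 312 to 414 and 249 to 286 (exact permutation p = 0.0571). Cd68 was the most abundant of these others, and their sum without it was not tested. Of the 13 markers tested, 11 had a log2 difference below 0, and 5 were lower and 1 higher without overlap. Adgre1 (7.36 to 21.9 against 3.88 to 22.2 RPKM, log2 difference 0.019) and Mrc1 (13.8 to 27.1 against 6.02 to 27.3, log2 difference -0.18) overlapped between groups. Ccr2 and Ms4a7 were at 0 in at least 1 MC-21 library. Both calls depended on the processing, with adjusted p up to 0.0882 for Ccr2, which lost its call without PBS replicate 7 or 8 or any MC-21 library, and up to 0.146 for F13a1, which lost it without any library but PBS replicate 6. Over the same alternatives the adjusted p of Cd68 ranged from 0.0465 to 0.232. The part of these cells in the Grn difference was not tested.

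HB-EGF is shed from the membrane to activate the epidermal growth factor receptor (EGFR) on hepatocytes. Hbegf (chr18:36664583-36675459, minus strand) was at 39.1, 27.2, 21.4 and 17.2 RPKM in PBS and at 51.2, 28.0 and 60.3 RPKM in MC-21. MC-21 replicates 2 and 4 exceeded every PBS library, whereas MC-21 replicate 3, the shallowest library, fell within the PBS range. Its log2 difference was 0.80 (SE 0.32, limma, unadjusted p = 0.0319, adjusted p = 0.302), with an exact permutation p of 0.114. It ranged from 0.58 without MC-21 replicate 4 to 1.12 without MC-21 replicate 3, and the unadjusted p was above 0.05 without any 1 of PBS replicates 7 and 8 and MC-21 replicates 2 and 4. Approximately 106 to 434 reads per library lay behind these values.

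The enzymes and receptors around HB-EGF were at low to moderate levels. Adam17, the protease that sheds HB-EGF and amphiregulin, was at 12.6 to 22.0 RPKM in PBS and 11.8 to 15.1 in MC-21 (log2 difference -0.33, limma adjusted p = 0.509), and Rhbdf2, the partner that brings it to the cell surface, at 12.4 to 16.6 and 7.99 to 16.4. Tgfa, another EGFR ligand, was at 1.72 to 4.69 RPKM in PBS and 3.04 to 5.06 in MC-21 (log2 difference 0.42, adjusted p = 0.522), and Egf averaged under 1 RPKM. Egfr reached 0.235 RPKM at most in any library, and Erbb2 was at 0.728 to 1.31. Erbb3 and Erbb4, which were also looked for, had no row, so no value is given for them.

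Oncostatin M is a gp130 cytokine released by activated neutrophils. Osm (chr11:4136423-4141029, plus strand) was at 427, 419, 533 and 389 RPKM in PBS and at 612, 390 and 513 RPKM in MC-21, and ranked between 136 and 207 of 16047 genes within each library. The groups overlapped, since MC-21 replicate 3 lay at the level of PBS replicate 8. MC-21 minus PBS, the log2 difference was 0.18 (SE 0.18, limma adjusted p = 0.681), and its interval, 0.860-fold to 1.49-fold of the PBS level, leaves out a 2-fold change in either direction. Centring the libraries on their medians gave a difference of 0.34.

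Its receptor chains differed widely in level. Il6st, which encodes the shared chain gp130, was at 90.8 to 180 RPKM in PBS and 164 to 201 in MC-21 (log2 difference 0.61, limma unadjusted p = 0.0245, adjusted p = 0.274). Osmr, the chain specific to oncostatin M, was at 1.56 to 3.03 RPKM in PBS and 0.446 to 3.90 in MC-21, and Lifr at 3.36 to 7.79 in PBS and 3.86 to 6.80 in MC-21. Il6, Lif and Il11, which signal through the same chain, each averaged under 1 RPKM.

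TGF-β1 transcript was at nearly the same level in all libraries. Tgfb1 (chr7:26472021-26490096, plus strand) was at 46.7, 37.0, 39.9 and 38.9 RPKM in PBS and at 42.3, 44.2 and 46.8 RPKM in MC-21. MC-21 replicates 2 and 3 lay within the PBS range and MC-21 replicate 4 was level with the highest PBS library. A log2 difference of 0.13 (SE 0.14, limma adjusted p = 0.706) had an interval from 0.880-fold to 1.36-fold, and Tgfb2 and Tgfb3 averaged under 1 RPKM.

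Among genes that hold or release latent TGF-β, Lrrc32 encodes GARP, which docks it on the cell surface, and Nrros its counterpart in myeloid cells. Lrrc32 was at 44.5 to 81.0 RPKM in PBS and 80.5 to 143 in MC-21 (log2 difference 0.87, limma unadjusted p = 0.0053, adjusted p = 0.166), and Nrros at 74.6 to 106 in PBS and 85.5 to 131 in MC-21 (log2 difference 0.25). Ltbp4, a latent TGF-β binding protein of the matrix, was at 27.7 to 78.3 RPKM in PBS and 17.7 to 24.0 in MC-21 without overlap (log2 difference -0.93, adjusted p = 0.235). Over the 17 tested genes of latency, shedding and activation the median log2 difference was -0.030, with -0.18 without PBS replicate 5 and 0.13 with median centring. By unadjusted p under 0.05, 2 were lower (11.2% of all genes) and 1 higher (3.59%), and 0 passed after adjustment. Furin, the convertase that cleaves pro-TGF-β, and Mmp9, a neutrophil gelatinase, differed by 0.0062 and -0.030 on the log2 scale.

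Genes downstream of TGF-β receptors did not pass the test. Of 15 signal transducers and feedback targets, 11 had a log2 difference below 0, a share close to the 69.4% of all genes, and the median was -0.25, or -0.089 without MC-21 replicate 4. By unadjusted p under 0.05, 3 were lower (11.2% of all genes) and 0 higher, and after adjustment 0 were. Those 3 were Pmepa1, a membrane inhibitor of the pathway (7.89 to 12.6 against 4.32 to 6.38 RPKM, log2 difference -0.71, limma adjusted p = 0.187), Smad6, an inhibitory SMAD (28.1 to 43.1 against 20.5 to 24.3, log2 difference -0.65, adjusted p = 0.156), and Smad3, a receptor-activated SMAD (8.31 to 10.5 against 6.71 to 7.56, log2 difference -0.40, adjusted p = 0.310). None of the 3 overlapped between groups, which was also required for naming them. Of the 15 genes, 4 were lower and 1 higher without overlap, against 13.3% of all genes in either direction. Tgfbr1 was at 21.6 to 39.6 RPKM in PBS and 29.8 to 34.2 in MC-21, and Tgfbr2 at 4.15 to 15.3 and 3.98 to 12.8.

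VEGF-A, the angiogenic factor induced by hypoxia, showed no detected group difference in its transcript. Vegfa (chr17:46153942-46169326, minus strand) was at 8.41, 10.9, 13.6 and 12.6 RPKM in PBS and at 14.7, 7.98 and 13.9 RPKM in MC-21. The lowest and the highest value were both from MC-21 livers. Here the log2 difference was 0.068 (SE 0.24, limma adjusted p = 0.920), with an interval from 0.717-fold to 1.53-fold, and it was below 0 without PBS replicate 5, MC-21 replicate 2 or MC-21 replicate 4.

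Hypoxia genes share control with Vegfa. Of 18 regulators and targets tested, 4 were higher and 0 lower by unadjusted p under 0.05 (3.59% and 11.2% of all genes), after adjustment 0 passed, and the median log2 difference was 0.075, from 0.031 to 0.23 when single libraries were left out. Egln3, an oxygen-sensing prolyl hydroxylase, was at 7.84 to 15.5 RPKM in PBS and 18.1 to 30.9 in MC-21 without overlap (log2 difference 0.99, limma adjusted p = 0.147). Epas1, which encodes HIF-2α, was at 32.6 to 64.7 and 71.8 to 77.1, also without overlap (log2 difference 0.68, adjusted p = 0.241). Hif1a, which encodes HIF-1α, was at only 1.42 to 4.85 RPKM in PBS and 2.03 to 2.93 in MC-21 (log2 difference -0.056). It was among 5 of the 18 genes with a log2 difference below 0. Adm, adrenomedullin, was at 3.91 to 9.43 RPKM in PBS and 5.46 to 22.7 in MC-21 (log2 difference 1.24, and 1.84 without MC-21 replicate 3, adjusted p = 0.266), and Ankrd37 at 21.8 to 29.9 and 29.2 to 50.5 (log2 difference 0.63, adjusted p = 0.242).

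Endothelial cells are among those that express VEGF receptors, and endothelial markers were abundant in these sorted cells. Flt1, VEGF receptor 1, was at 21.3 to 34.7 RPKM in PBS and 42.5 to 46.3 in MC-21 without overlap (log2 difference 0.63, limma unadjusted p = 0.0059, adjusted p = 0.172). Kdr, VEGF receptor 2, was at 24.5 to 54.3 RPKM in PBS and 17.6 to 57.1 in MC-21, Nrp1 at 21.7 to 36.7 and 9.90 to 31.0, and Nrp2 at 12.6 to 24.9 and 11.4 to 14.6. Eng, endoglin, a TGF-β co-receptor of endothelium, was at 286 to 492 RPKM in PBS and 219 to 349 in MC-21 (log2 difference -0.57, unadjusted p = 0.0382, adjusted p = 0.317). The summed level of 8 endothelial markers was 4020 to 6749 RPKM in PBS and 4230 to 6164 in MC-21, most of it from Igfbp7 and Clec4g. None was at 0 in any library, and 0 of 8 had an unadjusted p under 0.05. Of the 8 markers, 6 had a log2 difference below 0, against 69.4% of all genes, and the median was -0.26, against -0.15 over all genes. Their part in the receptor values, and in the values of the TGF-β and hypoxia genes above, was not tested.

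Igf1 and Hgf, which encode the growth factors IGF-1 and HGF, were at the low end. Igf1 (chr10:87321010-87399792, plus strand) was at 1.64, 3.80, 2.58 and 2.42 RPKM in PBS and at 1.92, 1.23 and 0.971 RPKM in MC-21, from approximately 16 to 103 reads per library. PBS replicate 5 lay below MC-21 replicate 2, and the other PBS libraries lay above all MC-21 libraries. Between group means the log2 difference was -0.59 (SE 0.25, limma, unadjusted p = 0.0445, adjusted p = 0.328), the exact permutation p was 0.0857, and median centring gave -0.43 (unadjusted p = 0.114).

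Hgf (chr5:16059368-16125257, plus strand) was at 2.09, 2.10, 1.18 and 2.01 RPKM in PBS and at 0.742, 1.36 and 0.0867 RPKM in MC-21. The shortest length at which all these values came out as whole reads was 4136 bases. At that length they correspond to approximately 24, 29, 13 and 33 reads in PBS and 11, 9 and 1 in MC-21. By the only annotated transcript, of 2755 bases, they are approximately 16, 19, 9 and 22 in PBS and 7, 6 and 0.7 in MC-21. PBS replicate 7 lay below MC-21 replicate 3. For Hgf the log2 difference was -0.77 (SE 0.29, limma, unadjusted p = 0.0257, adjusted p = 0.277), and the exact permutation p was 0.0857. Without MC-21 replicate 4, whose value rests on about 1 read, it was -0.47 (unadjusted p = 0.112), and with a pseudocount of 0.1 in place of 1 it was -1.63, so its size is not fixed at this depth.

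Receptors of these factors did not pass the test either. Igf1r, the IGF-1 receptor, was at 7.65 to 9.86 RPKM in PBS and 10.6 to 12.2 in MC-21 without overlap (log2 difference 0.39, limma unadjusted p = 0.0379, adjusted p = 0.316). Igf2r, which clears IGF-2, and Insr, the insulin receptor, differed by 0.16 and 0.17 on the log2 scale (adjusted p = 0.825 and 0.833). Met, the HGF receptor, reached 0.181 RPKM at most in any library. Igfbp4, which binds IGF-1, was at 142 to 250 RPKM in PBS and 97.8 to 156 in MC-21 (log2 difference -0.63, adjusted p = 0.249), and Hgfac, the HGF activator, averaged under 1 RPKM.

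Il10 (chr1:132916422-132921551, plus strand), which encodes the main anti-inflammatory cytokine of this list, was listed at 0, 0.460, 0.576 and 0 RPKM in PBS and at 0.643, 0 and 0 RPKM in MC-21. Approximately 4 reads in all were from PBS and 3 from MC-21, so a difference was not detectable at this depth, and the exact permutation p was 1. Its receptor chains were well above it. Il10ra, the ligand-binding chain, was at 14.7 to 25.3 RPKM in PBS and 20.5 to 33.6 in MC-21 (log2 difference 0.31, limma adjusted p = 0.566), and Il10rb at 80.9 to 111 and 95.6 to 116 (log2 difference 0.17, adjusted p = 0.637).

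**Figure D3:**
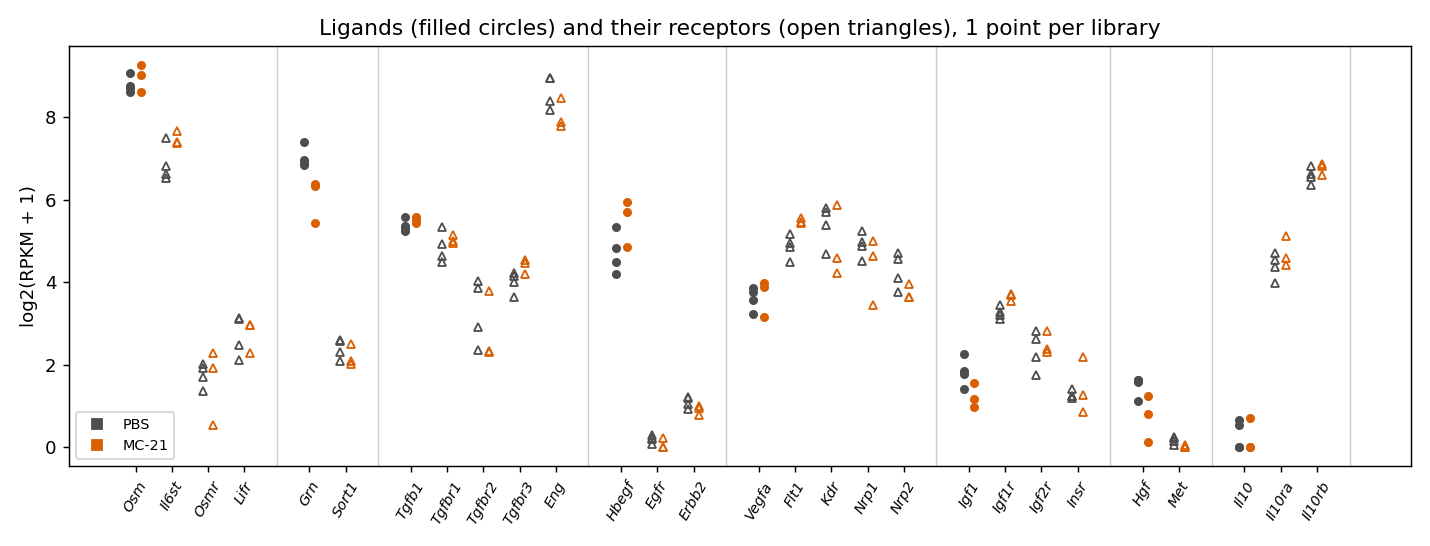
Level of each ligand (filled circles) and its receptors (open triangles) as log2(RPKM + 1), with 1 point per library, PBS in grey and MC-21 in orange. Osm lies above its 3 receptor chains, whereas Il10 lies below Il10ra and Il10rb in every library, and Met and Egfr lie near 0.

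IL-10 and oncostatin M both signal to STAT3, and 15 kinases, factors and feedback genes of that route were examined. Their median log2 difference was 0.14, or 0.015 without MC-21 replicate 2, with 3 higher and 1 lower by unadjusted p under 0.05 (3.59% and 11.2% of all genes) and 0 after adjustment. Jak2, a kinase of gp130 receptors, was at 23.0 to 39.5 RPKM in PBS and 53.1 to 65.3 in MC-21 (log2 difference 0.91, limma adjusted p = 0.0779, and 0.0410 after median centring). Nfil3, a transcription factor induced by IL-10, was at 20.7 to 34.7 and 43.8 to 63.7 RPKM (log2 difference 0.83, adjusted p = 0.130), and Cebpd, an acute-phase factor, at 220 to 250 and 288 to 340 (log2 difference 0.40, adjusted p = 0.190). Tyk2, a kinase of the IL-10 receptor, was at 4.74 to 5.80 RPKM in PBS and 3.45 to 3.62 in MC-21 (log2 difference -0.46, adjusted p = 0.264). Lack of overlap between groups was part of the rule by which these 4 were named. Of the 15 genes, 3 were higher and 1 lower without overlap, against 13.3% of all genes in either direction.

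Of 24 other growth factors and repair cytokines, 20 were in the table and 13 were tested. By unadjusted p under 0.05, 2 were higher and 1 lower (3.59% and 11.2% of all genes), and 0 passed after adjustment. The median log2 difference was -0.14, but 0.098 without MC-21 replicate 3 and 0.025 with median centring. Inhba, which encodes the activin A subunit, was at 0.340 to 1.79 RPKM in PBS and 2.07 to 4.04 in MC-21 without overlap (log2 difference 1.06, limma adjusted p = 0.187). Csf1, the macrophage growth factor, was at 73.3 to 162 RPKM and 161 to 198 (log2 difference 0.79, adjusted p = 0.211), and Pdgfa, a growth factor for stromal cells, at 16.4 to 53.1 and 8.67 to 22.9 (log2 difference -0.92, adjusted p = 0.336). The inflammatory cytokine Il1b exceeded every member at 5868 to 8005 RPKM. The list of receptors also held the TNF receptors Tnfrsf1a and Tnfrsf1b, which differed by 0.15 and 0.19 on the log2 scale (limma adjusted p = 0.649 and 0.776). For the 20 tested genes of that list the median log2 difference was 0.15, but -0.023 without PBS replicate 5 and -0.056 without MC-21 replicate 2, with 3 higher and 1 lower by unadjusted p under 0.05 (3.59% and 11.2% of all genes) and 0 after adjustment.

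**Figure D4:**
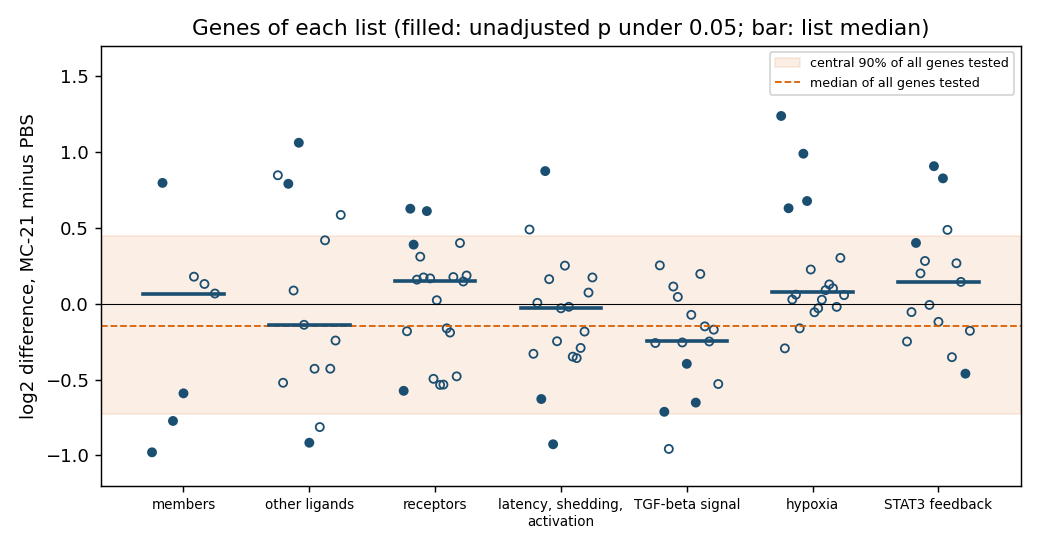
Log2 difference, MC-21 minus PBS, of each tested gene in the members and 6 related lists, with filled points at an unadjusted p under 0.05, bars at list medians, and the median and central 90% of all genes tested in orange. List medians run from -0.25 for TGF-β signalling to 0.15 for receptors, against -0.15 over all genes tested, and several change sign or size when 1 library is left out.

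Markers of further cell types overlapped between the groups in their sums. Summed RPKM was 256 to 578 in PBS and 255 to 412 in MC-21 for 8 hepatocyte markers, and 56.3 to 84.4 and 34.3 to 64.4 for 5 Kupffer cell markers, of which Cd5l and Marco were lower at an unadjusted p under 0.05. Lymphoid and NK markers summed to 9.81 to 21.0 and 7.11 to 22.2. Stellate cell and fibroblast markers, whose cells are a main source of Hgf, summed to 7.30 to 12.7 and 5.18 to 12.5. For 5 basophil and mast cell markers the sums were 8.64 to 14.6 and 11.9 to 14.0, mostly from Gata2. Eosinophil markers summed to 10.4 to 19.5 and 8.82 to 15.6, from only 2 of 5 listed genes and nearly all from Siglecf. Their part in the member values was not tested.

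The genes whose levels varied most like a member over the 7 libraries are given as a description, by Pearson's r of log2(RPKM + 1) among genes averaging 5 RPKM or more, and they share libraries and depth with it. For Grn they were Ube2v1 (r = 0.980), Slc8b1 (0.976) and Orai2 (0.975). For Osm they were Adamts4 (0.961), Nfe2 (0.945) and Kat8 (0.928), and for Hbegf they were Rpl24 (0.981), Rpl13a (0.935) and Atp6v1g1 (0.934). For Tgfb1 they were Cfap69 (0.977), Itgb3 (0.958) and S100a9 (0.955). For Vegfa they were Syncrip (0.969), P4ha1 (0.957), which is also a hypoxia gene of the list above, and Ddx6 (0.948).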

How the data were processed

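3′ RNA-seq libraries of sorted neutrophils were sequenced on an Illumina NextSeq. The authors mapped reads to mm9 with HISAT 0.1.5 and deposited gene RPKM values from Partek 6.6. The transcript annotation, the treatment of molecular barcodes, multi-mapping reads and strand are not given in the sources used here, so reads of overlapping genes cannot be told apart. Replicates are separate livers by their labels, and numbers are not shared between groups.

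RPKM values were used as deposited. Because they are not counts, differences (MC-21 minus PBS) were tested on log2(RPKM + 1) with limma 3.58.1 (lmFit, eBayes with a trend) in R 4.3.3, for 9594 genes averaging 1 RPKM or more, with Benjamini-Hochberg adjustment over all of them. Fold changes on this scale understate those of low genes. For single genes, an exact permutation test (two-sided) used all 35 splits. In simulated data for this comparison with 9594 genes, 177 of 200 genes changed by 2 on the log2 scale had an adjusted p under 0.05, with 12 false calls. That change was larger than the difference of any member in the main fit (Grn, -0.98), and recovery of smaller changes was not tested.

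Depth was estimated because low RPKM values fall on multiples of the value of 1 read. Of 631 genes used, 51.3% gave a depth within 1%, and of 3071 low values 77.8% were whole reads to within 0.1, so read numbers are approximate and no count test was run. They cover counting error only. Read numbers of a member used the shortest length at which all its values were whole reads, or, for Osm and Grn, the longest annotated transcript. Coordinates and 3′ UTRs came from GENCODE annotation of mm9. Python 3.11.15, pandas 2.3.3, numpy 2.4.6, scipy 1.17.1 and matplotlib 3.10.9 were used.

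The members, the related lists and the tests were chosen with earlier results of these data known. Named are the members, their receptors, list genes with an adjusted p under 0.05 or otherwise an unadjusted p under 0.05 and no overlap (at most 4 per list and direction), and the 3 genes most alike each member above 5 RPKM. Other genes of the lists were named after their values were seen. The value of 1 marker gene of the lists is not reported here. Alternatives were a pseudocount of 0.1, no filter, a filter at 5 RPKM, quantile normalization, median centring, limma without a trend, library quality weights, and leaving out each library.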

Additional observations from a re-analysis of the deposited data

Results flagged for a closer look

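Hgf in PBS replicate 7 was at 1.18 RPKM, far from the other 3 PBS libraries at 2.01 to 2.10 RPKM, with a Dixon ratio of 0.901, above the 95% critical value for 4 samples. It was the only one of 21 genes examined in the PBS group to pass, and chance flags about 1 in 20 groups. Approximately 13 reads lay behind the value, or 9 by the length of the annotated transcript. Without that library the log2 difference of Hgf was -0.90 (limma adjusted p = 0.303).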

How the results depend on the processing

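Over all alternatives, Grn, Hgf and Igf1 stayed lower and Hbegf, Osm and Tgfb1 higher in MC-21, and no member reached an adjusted p under 0.05 by limma. Vegfa ran from -0.080 to 0.32 when single libraries were left out, and was below 0 without PBS replicate 5 (-0.058), MC-21 replicate 2 (-0.080) or MC-21 replicate 4 (-0.041). The 4 members with an unadjusted p under 0.05 became 2 without a filter, 2 with a mean of at least 5 RPKM, which removes Hgf and Igf1, and 2 with quantile normalization, and 1 to 3 without single libraries. With at least a 2-fold difference as well, the 0 became 1 with a pseudocount of 0.1 (Hgf), 1 with library quality weights (Grn), and 0 to 3 without single libraries, with 3 (Grn, Hgf and Hbegf) without MC-21 replicate 3. Without PBS replicate 6, Csf1 (adjusted p = 0.0416) and Jak2 (0.0447) were called, so that the other ligands and the STAT3 genes each ran from 0 to 1 without single libraries, and median centring also gave 1 STAT3 gene, Jak2. Over all genes the 60 calls became 4 without a filter, 74 with centring, 9 without PBS replicate 8 and 102 without PBS replicate 6. The median log2 difference of all genes was -0.15, 0.018 with centring and -0.0081 with quantile normalization. Causes were not tested. No paired analysis was possible because the groups share no replicate numbers.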
